A study of Mus musculus with 2 samples.

Results

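The expression of 9 genes, 8 matrix metalloproteinases (Mmp2, Mmp3, Mmp8, Mmp9, Mmp12, Mmp13, Mmp14 and Mmp19) and the tissue inhibitor Timp1, was examined cell type by cell type in ear skin with IgE-mediated chronic allergic inflammation (IgE-CAI). The 9 genes were taken by name, and all 9 had a row among the 35208 gene rows of the single-cell matrix. Wild-type (WT) BALB/c mice and Ccr2-/- BALB/c mice, which lack the chemokine receptor that classical monocytes use to enter tissue, had both been sensitized by intravenous injection of 300 μg of IgE against trinitrophenol (TNP) and challenged with 10 μg of TNP-conjugated ovalbumin in the ear. The ears were taken on day 3 or day 5, which gave 4 groups, WT on either day and Ccr2-/- on either day. The mice of the study were males 7 to 12 weeks old. Cells of the 4 groups were tagged with hashtag antibodies and sequenced together by TAS-Seq on the BD Rhapsody platform, so each group was 1 pool, and how many mice went into a pool is not given in the sources used here. No ear without inflammation was analysed here.

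Matrix metalloproteinases are zinc-dependent enzymes that cut the extracellular matrix and many secreted or membrane proteins. Most are secreted as inactive precursors, while Mmp14 is anchored in the membrane, where it activates pro-Mmp2. Timp1 is a secreted protein that blocks the active site of most of these enzymes. In inflamed skin, collagenases (Mmp8, Mmp13), gelatinases (Mmp2, Mmp9), stromelysin-1 (Mmp3) and the macrophage metalloelastase (Mmp12) are known to come from different cells, so that their transcripts report on stroma and on infiltrating leukocytes at the same time.

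Of 8953 cell barcodes, 7118 were kept: 1543 in the WT day 3 pool, 1037 in WT day 5, 2191 in Ccr2-/- day 3 and 2347 in Ccr2-/- day 5. The kept cells of a pool held between 68064673 and 162572556 reads, and the median reads per cell ranged from 18632 in Ccr2-/- day 5 to 48232 in WT day 5. Cell types were rebuilt from 23 clusters named by markers that included no metalloproteinase and no Timp gene, and 4 clusters stayed unnamed. In the monocyte-macrophage cluster group (Mo-Mac-like), Ccr2 itself stood at 934 and 684 reads per 1000000 (CPM) in the WT pools and at 83.1 and 28.8 CPM in the Ccr2-/- pools of day 3 and day 5. Levels below are CPM of reads summed over the cells of 1 type in 1 pool. Reads were counted without molecular identifiers, and reads copied from 1 molecule are not independent. The 95% intervals of CPM (exact Poisson) treat all reads as independent, so they are too narrow even for counting error. Intervals of shares of cells cover counting error only, and cells of 1 pool are not replicates of a condition.

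Where the genes lie in the mouse genome (GRCm38) is given first, because 4 of them are neighbours. Mmp13 (chr9:7272514-7283331), Mmp12 (chr9:7344381-7369499), Mmp3 (chr9:7445822-7455975) and Mmp8 (chr9:7558456-7568485) are protein-coding genes on the + strand within a run of 10 metalloproteinase genes that spans 427 kb. The others are single genes: Mmp2 (chr8:92827291-92853420), Mmp9 (chr2:164940780-164955850), Mmp14 (chr14:54431612-54445364), Mmp19 (chr10:128790910-128800824) and Timp1 (chrX:20870166-20874735). Timp1 overlaps Syn1, Mmp19 overlaps Tmem198b and Gm47093, and Mmp12 overlaps Mmp1b on the other strand. Whether the single-cell reads were mapped to 1 strand is not given in the sources used here. Mmp1b had no row in the matrix, so its reads could not be set beside the 17999 of Mmp12. The Timp1 row held 1001697 reads against 1190 for Syn1, and the Mmp19 row held 271207 against 10629 for Tmem198b and 94 for Gm47093.

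The 130 bases just before the transcript start of the 4 neighbours are shown, because these genes share 1 stretch of chromosome 9 and had the largest share of their reads over all pools in 3 different cell types. The sequences are from RefSeq on GRCm38.p6 and read 5′ to 3′ on the + strand. Capitals mark the letters of an AP-1 site (TGAGTCA or, on the other strand, TGACTCA) and of a TATA box on this strand (TATAAA).
Mmp3, chr9:7445692-7445821: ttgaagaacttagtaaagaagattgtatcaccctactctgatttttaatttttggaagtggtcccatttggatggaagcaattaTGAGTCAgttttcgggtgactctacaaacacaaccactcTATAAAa
Mmp8, chr9:7558299-7558428: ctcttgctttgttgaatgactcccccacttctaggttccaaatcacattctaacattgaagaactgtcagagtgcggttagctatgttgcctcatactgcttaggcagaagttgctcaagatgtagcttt
Mmp12, chr9:7347244-7347373: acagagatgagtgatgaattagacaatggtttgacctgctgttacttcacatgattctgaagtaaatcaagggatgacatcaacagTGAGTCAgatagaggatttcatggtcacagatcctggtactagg
Mmp13, chr9:7272384-7272513: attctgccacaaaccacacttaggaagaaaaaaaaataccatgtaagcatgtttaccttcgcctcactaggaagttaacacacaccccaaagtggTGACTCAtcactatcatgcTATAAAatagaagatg
AP-1 is the Fos and Jun family of transcription factors, and a TATA box fixes the start of transcription in a minority of promoters. The AP-1 letters began 46 bases before the start of Mmp3, 35 bases before that of Mmp13 and 44 bases before the downstream start of Mmp12 shown here. TATA letters began 7 bases before the start of Mmp3 and 16 bases before that of Mmp13. Those of Mmp8 were on the other strand (TTTATA), beginning 3 bases before its start and running past it, and those of Mmp12 lay after the start shown. In the 300-base windows of the table (250 bases before and 50 after the start), 6 of the 9 genes had an entry, with 7 promoters. The windows of Mmp14 and Timp1 and the upstream start of Mmp12 held neither set of letters. Over all 32851 promoter windows, 5.20% held the AP-1 letters on either strand, 13.6% the TATA letters and 0.941% both. These are matches of letters only, and Mmp2, Mmp9 and Mmp19 had no entry.

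Summed over all pools, the 9 genes fell into 3 groups by the cells that held their reads. Fibroblast-like cells held 85.3% of all Mmp2 reads, 93.0% of Mmp3, 83.0% of Mmp14, 80.6% of Mmp19 and 80.4% of Timp1. Neutrophil-like cells held 83.1% of Mmp9 reads and 65.1% of Mmp8 reads, and Mo-Mac-like cells held a further 26.9% of Mmp8. Mo-Mac-like cells held 89.8% of Mmp13 and 60.3% of Mmp12, with 34.3% of Mmp12 in dendritic cell-like cells. These shares move with the number of cells of a type in each pool, and for 5 genes another type led in some pools. In the WT pools of day 3 and day 5, Mo-Mac-like cells held 77.2% and 52.0% of Mmp8 against 14.5% and 32.9% in neutrophil-like cells, and on day 5 they held 60.9% of Mmp9 against 10.9%. Mmp19 was divided in the same pools, where Mo-Mac-like cells held 47.1% and 46.8% of its reads and fibroblast-like cells held 41.8% and 45.7%. In the Ccr2-/- pools, fibroblast-like cells held 75.9% and 71.9% of the few Mmp13 reads (58 and 285) and Mo-Mac-like cells 19.0% and 5.96%, so the pooled Mmp13 share came mostly from the 2743 reads of WT day 5. For Mmp12, dendritic cell-like cells held 42.0% against 40.4% in Mo-Mac-like cells in WT day 3, and 58.9% against 14.6% in Ccr2-/- day 3. The read totals behind these shares differed widely, from 3207 reads for Mmp13 and 3355 for Mmp8 to 326709 for Mmp2.

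**Figure D1:**
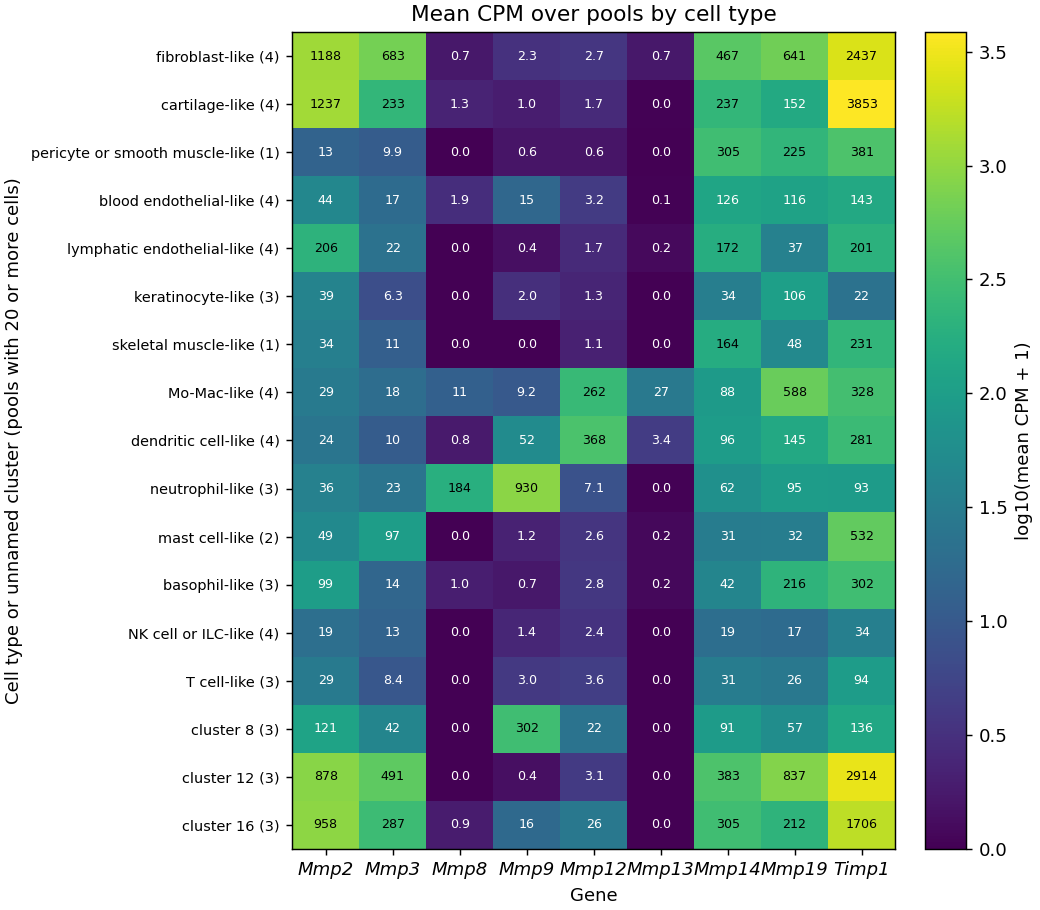
Heat map of the mean CPM of the 9 genes (columns) over the pools with at least 20 cells of each cell type or unnamed cluster (rows), coloured by log10 of the mean plus 1 and with the mean written in each cell. Mmp2, Mmp3 and Timp1 lie highest in fibroblast-like and cartilage-like cells and in 2 unnamed clusters, Mmp8 and Mmp9 in neutrophil-like cells, and Mmp12 and Mmp13 in Mo-Mac-like and dendritic cell-like cells.

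By mean level over pools with at least 20 cells of a type, 2 genes were highest in fibroblast-like cells, Mmp3 (683 ± 123 CPM, SD, n = 4 pools) and Mmp14 (467 ± 88.4 CPM). Both were higher in every fibroblast-like pool than in any cartilage-like pool, with a lowest value of 531.6 CPM against a highest of 369 for Mmp3 and of 379 against 251 for Mmp14. For both, the range over pools overlapped that of the unnamed cluster led by Jun and Klf4, which was next in order. All 7 fibroblast markers passed in that cluster. It stayed unnamed only for its shallow depth, with a median of 5104.5 reads per cell (0.195 of the pool median). It is thus not shown to be a cell type other than fibroblasts. Mmp2 was at 1237 ± 291 CPM in cartilage-like cells and at 1188 ± 291 CPM in fibroblast-like cells, a gap smaller than the spread between pools. Timp1 averaged 3853 ± 1889 CPM in cartilage-like cells and 2437 ± 1296 CPM in fibroblast-like cells, again with overlapping ranges. The order of the fibroblast-like and cartilage-like cells is therefore not resolved for Mmp2 and Timp1. Mmp8 (184 ± 46.9 CPM, n = 3 pools) and Mmp9 (930 ± 195 CPM, n = 3) led in neutrophil-like cells, and no pool of another type reached their lowest value there. Mmp19 was shared between the cluster led by Jun and Klf4 (837 ± 316 CPM, n = 3), fibroblast-like cells (641 ± 397 CPM, n = 4) and Mo-Mac-like cells (588 ± 233 CPM, n = 4), whose ranges overlapped one another. The next in order were 225 CPM in the 1 pool of pericyte or smooth muscle-like cells and basophil-like cells, which reached 520 CPM in 1 of 3 pools.

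Free RNA can give reads in cells that do not express a gene, so the level of each stromal gene elsewhere was set beside 7 fibroblast markers. In Mo-Mac-like cells the 7 markers stood at 2.14% to 3.07% of their own level in fibroblast-like cells. Mmp2 stood at 2.41% and Mmp3 at 2.64%, inside that range. Whether these reads are free RNA was not tested, and they were uneven over the Mo-Mac-like cells, most of them lying in the sub-cluster led by Dpt and Lum that is described further on. Mmp14 (18.8%), Timp1 (13.5%) and Mmp19 (91.8%) stood above the range of the markers. Mmp2 reads were nevertheless found in 45.8% to 55.5% of Mo-Mac-like cells at full depth, and in 12.9% to 18.0% after each cell was thinned to 10000 reads. In neutrophil-like cells the markers stood at 2.51% to 7.49%, Mmp2 at 3.04%, Mmp3 at 3.42% and Timp1 at 3.82%, all inside the range, whereas Mmp14 (13.2%) and Mmp19 (14.8%) were above it.

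Fibroblast-like cells were compared between genotypes first, with 318 and 266 cells in the WT pools of day 3 and day 5 and 709 and 542 in the Ccr2-/- pools. Both Ccr2-/- pools held more Mmp19 and Timp1 than both WT pools. They held less Mmp2 and Mmp14, while Mmp3 did not keep 1 direction.

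Timp1 stood at 1752 CPM (95% interval 1738 to 1766) in WT day 3, 959 CPM (948 to 971) in WT day 5 and, in Ccr2-/-, at 3673 CPM (3662 to 3685) on day 3 and 3364 CPM (3352 to 3375) on day 5. The lowest Ccr2-/- pool was thus above the highest WT pool, with ratios of Ccr2-/- over WT of 2.096 on day 3 and 3.51 on day 5. The median single cell held 286 CPM and 118 CPM in the WT pools of day 3 and day 5, and 1265 CPM and 1478 CPM in the Ccr2-/- pools. After thinning to 10000 reads, 72.2% (exact 95% interval 66.9% to 77.0%) and 59.2% (52.9% to 65.2%) of WT fibroblast-like cells and 90.1% (87.6% to 92.2%) and 87.6% (84.5% to 90.2%) of Ccr2-/- cells had a Timp1 read.

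Mmp19, a secreted metalloproteinase that degrades basement membrane proteins, stood at 367 CPM (360 to 373) in WT day 3, 282 CPM (276 to 289) in WT day 5 and, in Ccr2-/-, at 1143 CPM (1136 to 1149) on day 3 and 770 CPM (765 to 776) on day 5. The genotypes again did not overlap, and the ratio was 3.12 on day 3 and 2.73 on day 5. The share of cells with a read after thinning was 59.8% (exact 95% interval 54.2% to 65.3%) and 52.7% (46.4% to 58.8%) in WT against 72.1% (68.6% to 75.3%) and 77.0% (73.2% to 80.5%) in Ccr2-/-.

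Mmp2, a gelatinase, stood at 1315 CPM in WT day 3, 1533 CPM in WT day 5, 888 CPM in Ccr2-/- day 3 and 1018 CPM in Ccr2-/- day 5. Both WT pools were above both Ccr2-/- pools, by 1.48 times on day 3 and 1.51 times on day 5. Its activator Mmp14 followed the same order at 473, 587, 379 and 431 CPM in the same pools. The stromelysin Mmp3, which cuts proteoglycans and activates other metalloproteinases, stood at 812, 532, 642 and 747 CPM, lower in Ccr2-/- on day 3 and higher on day 5. Mmp8, Mmp9, Mmp12 and Mmp13 stayed under 5 CPM in each of the 4 fibroblast-like pools.

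**Figure D2:**
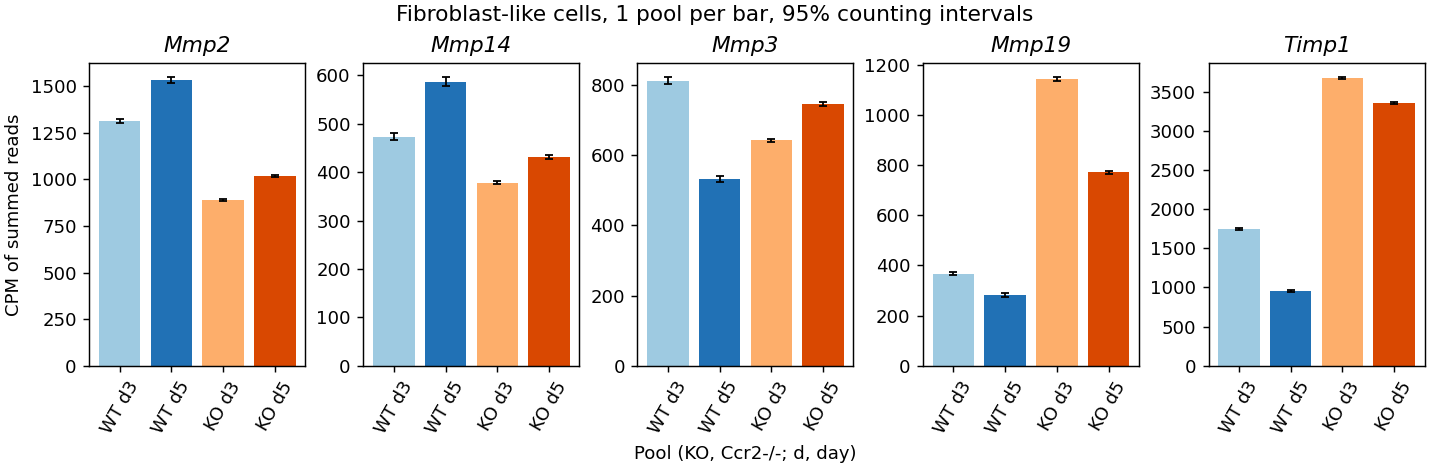
CPM of the 5 stromal genes in fibroblast-like cells, with 1 bar per pool and 95% counting intervals (KO, Ccr2-/-). Timp1 (3364 and 3673 CPM) and Mmp19 (770 and 1143 CPM) are higher in both Ccr2-/- pools than in either WT pool, and Mmp2 and Mmp14 are lower in both.

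Of the 5 genes with a mean of at least 5 CPM in fibroblast-like cells, 2 (Mmp19 and Timp1) were at least 2-fold higher in Ccr2-/- on both days, on the scale of CPM plus 1. Over all 11033 genes at that level, 59 genes (0.535%) were. When each cell was instead given to its best marker list, Timp1 missed the 2-fold limit on day 3 with log2 ratios of 0.99 on that day and 1.501 on day 5, and of the 5 genes only Mmp19 stayed called. None of the 5 was at least 2-fold lower on both days, against 118 genes (1.07%) overall. The median log2 ratio of the 5 genes was -0.32 on day 3 and 0.49 on day 5, beside 0.00 and 0.05 for all genes tested. Between days, none of the 5 was past 2-fold in both genotypes in either direction, and overall 9 genes (0.0816%) were higher and 4 genes (0.0363%) lower on day 5.

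Each day had only 1 pool per genotype, so the test across both days had 2 pools against 2, with day as a term. Its residual is how far the genotype difference varied between the 2 days. No spread between replicate pools of a group enters its p-values. In edgeR's quasi-likelihood test with Benjamini-Hochberg adjustment over 19965 genes, 0 genes (0%) passed an adjusted p of 0.05 in fibroblast-like cells, while 3961 had an unadjusted p under that value and DESeq2 called 1593. Mmp19 had a log2 difference of 1.57 (SE 0.09, edgeR adjusted p = 0.134), Timp1 of 1.46 (SE 0.19, edgeR adjusted p = 0.134) and Mmp2 of -0.55 (SE 0.07, edgeR adjusted p = 0.134). DESeq2 called these 3 of the 9 genes. Mmp14 differed by -0.36 (SE 0.08) and Mmp3 by 0.10 (SE 0.21), and neither was called by either tool. The median reads per fibroblast-like cell were 81270 and 80660 for WT against 137052 and 142542 for Ccr2-/-, so depth moved with the genotype, and its part in the levels was not tested.

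The fibroblast-like cells formed 2 clusters, which the genotypes filled unequally. Cluster 0, led by Saa3, Cxcl5 and Reg1, held 98 of 318 cells (30.8%, exact 95% interval 25.8% to 36.2%) in WT day 3, 45 of 266 (16.9%, 12.6% to 22.0%) in WT day 5, 440 of 709 (62.1%, 58.4% to 65.6%) in Ccr2-/- day 3 and 339 of 542 (62.5%, 58.3% to 66.6%) in Ccr2-/- day 5. Cluster 1, led by Scara5 and Abca8a, held the rest, so most WT cells were in cluster 1 and most Ccr2-/- cells in cluster 0. The genes of these cells built the clusters, so the sizes are given to read the values above, and the levels by cluster are descriptions.

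Timp1 was 4.52 to 8.13 times higher in cluster 0 than in cluster 1 over the 4 pools, and Mmp19 was 2.08 to 4.21 times higher. Mmp2 had the opposite pattern, with 1.76 to 2.47 times more in cluster 1, and Mmp14 had 1.39 to 1.65 times more there. Mmp3 had no fixed side, with a ratio of cluster 1 over cluster 0 between 0.710 and 1.30. The inhibitor Timp1 and Mmp19 were thus high in the cluster led by the acute-phase gene Saa3 and the chemokine gene Cxcl5, and Mmp2 and its activator Mmp14 in the other. When clustered more finely, fibroblast-like cells included 514 cells led by Hp and Lcn2 and 438 led by the cell cycle gene Cdk1. The Cdk1 cluster held 40, 30, 188 and 180 cells in the 4 pools. The part of each in the levels of cluster 0 was not tested.

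Within each cluster the genotype difference in Timp1 and Mmp19 kept its direction but was mostly smaller than in all fibroblast-like cells. In cluster 0, Timp1 stood at 2927 and 1976 CPM in WT skin against 4494 and 3994 CPM in Ccr2-/- skin on day 3 and day 5, ratios of 1.54 and 2.02. In cluster 1 it stood at 360 and 437 CPM in the WT pools, with 757 and 822 CPM for Ccr2-/-, ratios of 2.103 and 1.88. The 2 genotypes did not overlap in either cluster. Mmp19 in cluster 0 stood at 481 and 510 CPM in WT skin against 1372 and 880 CPM in Ccr2-/- skin, ratios of 2.85 and 1.72. In cluster 1 it stood at 231 and 165 CPM in the WT pools, with 326 and 329 CPM for Ccr2-/-, ratios of 1.41 and 1.997. The Mmp2 difference was smaller inside the clusters, with Ccr2-/- over WT ratios of 0.718 and 1.07 in cluster 0 and 0.905 and 0.922 in cluster 1. The median depth per cell was 160053 to 194790 reads in cluster 0 and 61180 to 78226 in cluster 1.

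**Figure D3:**
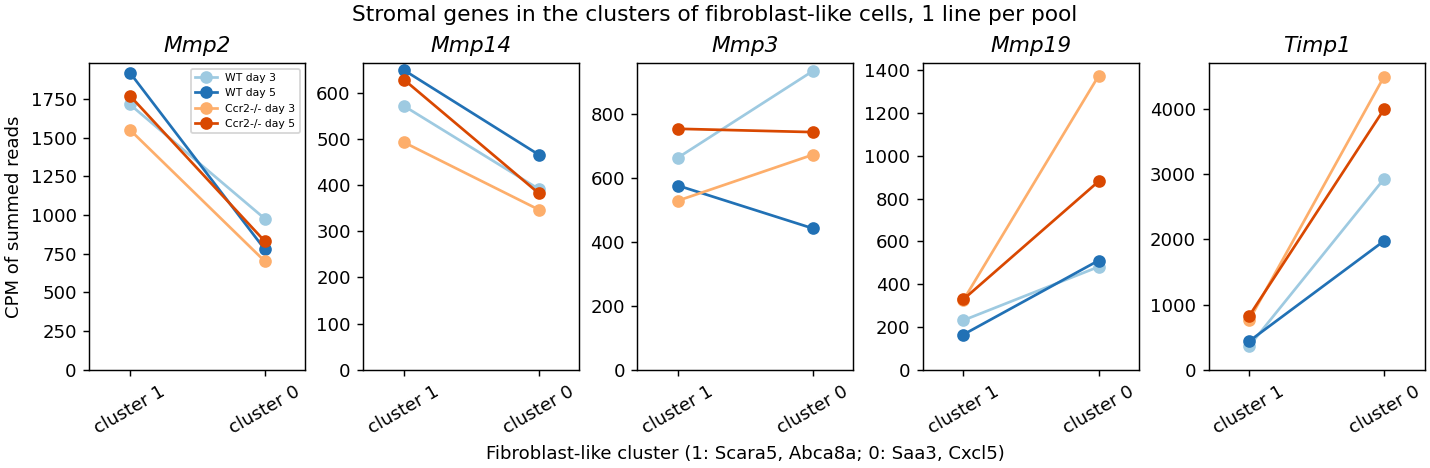
CPM of the 5 stromal genes in the 2 fibroblast-like clusters, with 1 line per pool. Timp1 and Mmp19 are higher in cluster 0 in all 4 pools, and Mmp2 and Mmp14 in cluster 1 in all 4 pools.

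The summed level of the 7 fibroblast markers in fibroblast-like cells was 71710 and 86822 CPM in WT skin against 58169 and 53119 CPM in Ccr2-/- skin on day 3 and day 5, so it was lower in Ccr2-/- beside the lower Mmp2 and Mmp14. Summed markers of cycling cells (6 genes) were 280 and 211 CPM in the WT pools, with 395 and 528 CPM for Ccr2-/-. The part of these shifts in the levels of the metalloproteinases was not tested. Cartilage-like cells (90, 39, 120 and 120 cells) again had more Timp1 in both Ccr2-/- pools, with 2113 and 2526 CPM in WT skin against 4607 and 6165 CPM in Ccr2-/- skin. Their Mmp2 was again higher in WT, at 1272 and 1632 CPM against 976 and 1070 CPM.

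Mo-Mac-like cells were few in Ccr2-/- skin: 499 and 467 cells in WT and 137 and 94 in Ccr2-/- on day 3 and day 5. Their metalloproteinase reads came in 2 forms. Mmp14, Mmp19 and Timp1 were spread over many cells, while Mmp12 and Mmp13 rested on very few.

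Mmp19 in Mo-Mac-like cells stood at 521 CPM in WT day 3, 292 CPM in WT day 5, 817 CPM in Ccr2-/- day 3 and 723 CPM in Ccr2-/- day 5. Both Ccr2-/- pools were above both WT pools, by 1.57 times on day 3 and 2.48 times on day 5. Timp1 stood at 269 and 188 CPM in the WT pools, with 600 and 256 CPM for Ccr2-/-, so the ranges overlapped. Mmp14 stood at 72.1 and 108 CPM in WT skin against 80.8 and 90.3 CPM in Ccr2-/- skin, with no order of genotypes.

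In edgeR's test over 16485 genes, 95 genes (0.576%) passed in Mo-Mac-like cells and 0 of the 9 did, although 2744 genes had an unadjusted p under 0.05. The nearest were Mmp19 with a log2 difference of 1.03 (SE 0.20, edgeR adjusted p = 0.0870) and Mmp13 with -4.01 (SE 0.79, edgeR adjusted p = 0.0878). Timp1 differed by 0.85 (SE 0.21, edgeR adjusted p = 0.131) and Mmp12 by 1.41 (SE 0.54, edgeR adjusted p = 0.261). DESeq2 called 733 genes, among them Mmp13, Mmp19 and Timp1.

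By size alone, 0 of the 9 genes were at least 2-fold higher in Ccr2-/- Mo-Mac-like cells on both days, against 198 of 10648 genes (1.86%). Mmp13 was the 1 gene at least 2-fold lower on both days, against 243 genes (2.28%). This call was lost with a pseudocount of 5 CPM, and with the mean of single-cell CPM the 1 gene past 2-fold on both days was Mmp12, which was higher in Ccr2-/-. Mmp9 and Mmp12 were at least 2-fold higher on day 5 in both genotypes, against 80 genes (0.751%), and none was lower, against 34 genes (0.319%). Mmp9 stood at 2.83 and 15.4 CPM in WT Mo-Mac-like cells and at 1.303 and 17.2 CPM in Ccr2-/- cells on day 3 and day 5, on 76, 412, 14 and 124 reads, and 1 cell held between 34.0% and 57.1% of the reads of a pool. The summed neutrophil markers in the same cells went from 291 to 205 CPM in WT and from 147 to 299 CPM in Ccr2-/-, and their part in the Mmp9 level was not tested. The median log2 ratio of Ccr2-/- over WT for the 9 genes was -0.47 on day 3 and 0.16 on day 5, beside 0.00 and 0.01 for all genes tested. The summed fibroblast markers in Mo-Mac-like cells were 1982 and 2418 CPM in the WT pools, with 1626 and 958 CPM for Ccr2-/-, and Mmp2 stood at 30.9, 48.1, 22.0 and 13.8 CPM in the same pools.

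Mmp12, which cleaves elastin, stood at 15.9 CPM (14.4 to 17.4) in WT day 3, 150 CPM (146 to 155) in WT day 5 and, in Ccr2-/-, at 16.4 CPM (14.1 to 19.0) on day 3 and 865 CPM (844 to 887) on day 5. Both day 5 pools were above both day 3 pools. A single cell held 97.0% of the Mmp12 reads of the Ccr2-/- day 5 pool and 73.8% of those of the WT day 5 pool. Without the highest cell of each pool the levels were 12.9 CPM in WT day 3, 39.6 in WT day 5, 9.25 in Ccr2-/- day 3 and 26.9 in Ccr2-/- day 5, and day 5 stayed above day 3 in each genotype. A second cell of WT day 5 held 510 reads, and the level without it as well was not computed. The order of the genotypes on day 5 turned, from a log2 ratio of 2.52 to -0.54. Reads of Mmp12 were found in 47 of 499 (9.42%), 46 of 467 (9.85%), 16 of 137 (11.7%) and 13 of 94 (13.8%) Mo-Mac-like cells. With each cell thinned to 10000 reads, the shares in these pools were 3.76%, 3.46%, 3.31% and 5.88%, with no rise by day 5 in WT. Of all 1197 Mo-Mac-like cells, 8 held at least 1000 CPM. Mmp12 reads were not particular to Mo-Mac-like cells: 14.9% of fibroblast-like cells, a type not known for Mmp12, had one at a median depth of 114522 reads, against 10.2% of Mo-Mac-like cells at 48186. After thinning to 10000 reads the shares were 1.48% (exact 95% interval 0.979% to 2.15%) and 3.76% (2.71% to 5.06%), and whether the reads in fibroblast-like cells are free RNA was not tested.

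Mmp13, a collagenase, stood at 4.103 CPM (3.37 to 4.95) in WT day 3, 102 CPM (98.5 to 106) in WT day 5 and, in Ccr2-/-, at 1.02 CPM (0.511 to 1.83) on day 3 and 2.36 CPM (1.38 to 3.79) on day 5. The WT day 5 pool stood far above the others and held all 4 Mo-Mac-like cells with at least 1000 CPM. Its highest cell held 65.9% of its Mmp13 reads, and without the highest cell of each pool the levels were 2.24, 35.1, 0.466 and 1.30 CPM. Cells with any Mmp13 read numbered 7 of 499 (1.40%), 19 of 467 (4.07%), 3 of 137 (2.19%) and 4 of 94 (4.26%) in the 4 pools. The share of cells with a read was thus not lower in Ccr2-/- on either day.

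Mo-Mac-like cells were split further into 9 sub-clusters, named from markers where at least 3 of them passed. A sub-cluster stayed unnamed where fewer passed, where its 10 leading genes held more markers of another type than of its own, or where its cells were shallow for their pool with no own marker among those genes, which left 3 unnamed. In the study, monocyte-derived macrophages of these lesions are divided into early and late stages, written CMDMs for classical monocyte-derived macrophages. The sub-cluster with the late CMDM markers Gpnmb, Spp1, Trem2, Fabp5 and Abcg1 held 52 cells, 4.34% of the Mo-Mac-like cells, with 16, 33, 1 and 2 cells in the 4 pools. Of its 10 leading genes, 5 were interferon-induced (Rsad2, Ifit2, Cmpk2, Ifit1 and Ifit3) and 2 were late CMDM markers (Gpnmb and Spp1). The study places Ifit1, Ifit2 and Ifit3 with classical monocytes, so part of the leading genes goes against the name, which rests on the 5 markers.

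These 52 late CMDM-like cells held 93.8% of the Mmp12 reads and 88.4% of the Mmp13 reads of all Mo-Mac-like cells. Their Mmp12 level was 2533 CPM, and 1085 CPM without the highest cell, with reads in 18 cells. Their Mmp13 level was 634 CPM, and 193 CPM without the highest cell, with reads in 10 cells. Most of the late CMDM-like cells thus had no read of either gene. Mmp14 was more even in them, at 242 CPM (211 without the highest cell) with reads in 84.6% of cells.

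By pool, Mmp12 in the late CMDM-like cells was 192 CPM in WT day 3 and 1609 CPM in WT day 5. Ccr2-/- day 3 had 1 such cell, with 717 CPM, and Ccr2-/- day 5 had 2, with 22223 CPM between them. Mmp13 had 0 reads in the 16 cells of WT day 3, which allows up to 2.31 CPM by 3 reads, and 1062 CPM in the 33 cells of WT day 5. No comparison of genotypes in this subset rests on more than 2 cells of a Ccr2-/- pool.

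Mmp19 and Mmp8 had other homes among the Mo-Mac-like cells. The early CMDM-like cells (262 cells, with 172, 18, 42 and 30 in the 4 pools) held 59.0% of the Mmp19 reads, at 1134 CPM. Their Mmp19 level was 823 and 1154 CPM in WT skin against 1739 and 2127 CPM in Ccr2-/- skin, with no overlap between genotypes. The 2 resident-like sub-clusters differed, with 65.7 CPM of Mmp19 and 30.2 CPM of Mmp14 in the 134 cells led by Cd209b, and 328 and 65.8 CPM in 62 cells led by Cyp26b1 and the cell cycle gene Cdk1. The monocyte-like cells (110, of which 91 were in WT day 3) held 58.5% of the Mmp8 reads of Mo-Mac-like cells, at 133 CPM, and 120 CPM without the highest cell, with reads in 41 cells. One of the sub-clusters that stayed unnamed was led by the fibroblast genes Dpt and Lum and held 204 cells, 164 of them in WT day 5. It held 55.7% of the Mmp2 and 61.7% of the Mmp3 reads of Mo-Mac-like cells.

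**Figure D4:**
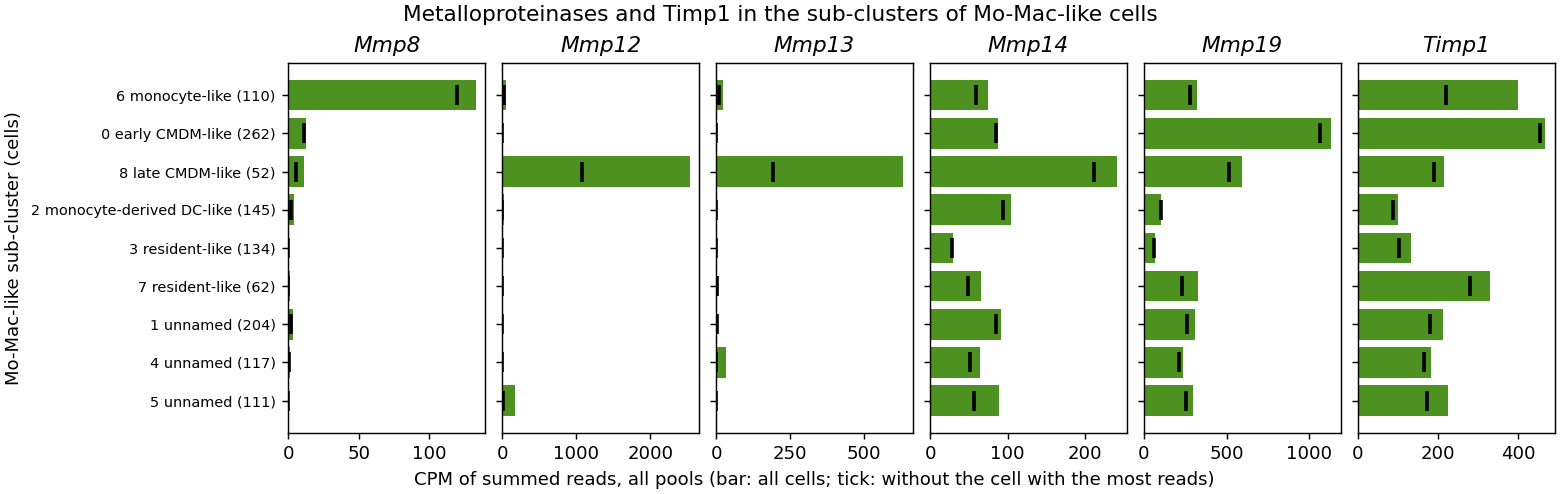
CPM of 6 genes in the 9 sub-clusters of Mo-Mac-like cells over all pools (bars), with a tick at the level without the cell with the most reads. Mmp12 (2533 CPM) and Mmp13 (634 CPM) stand out in the 52 late CMDM-like cells, Mmp19 (1134 CPM) in early CMDM-like cells and Mmp8 (133 CPM) in monocyte-like cells.

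The highest single cells show how narrow the Mmp12 and Mmp13 signal was. One late CMDM-like cell of Ccr2-/- day 5 held 6031 Mmp12 reads among its 197633 reads, 33.5% of all Mmp12 reads in the data. A dendritic cell-like cell of the same pool held 4086 (22.7%), and a late CMDM-like cell of WT day 5 held 2974 (16.5%). The WT day 5 cell also held 1807 Mmp13 reads, 56.3% of all Mmp13 reads, and a second WT day 5 cell held 510 Mmp12 and 331 Mmp13 reads. The Ccr2-/- day 5 cell with the most Mmp12 held 2 Mmp13 reads, so the pair did not always occur together.

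**Figure D5:**
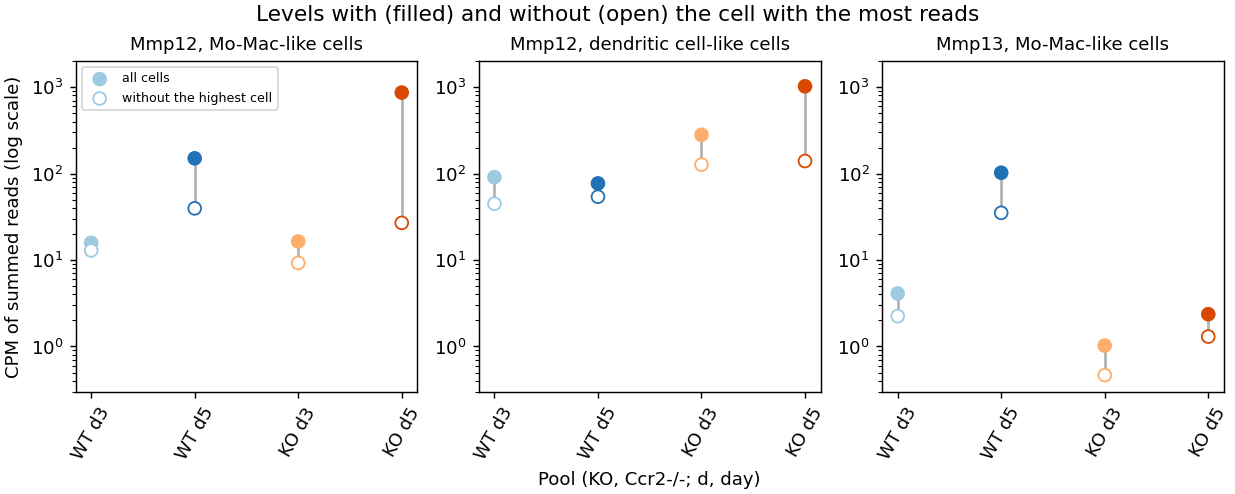
CPM on a log axis of Mmp12 in Mo-Mac-like and dendritic cell-like cells and of Mmp13 in Mo-Mac-like cells, by pool, with all cells (filled) and without the cell with the most reads of the gene (open). The Mmp12 level of Ccr2-/- day 5 drops from 865 to 26.9 CPM in Mo-Mac-like cells and from 1022 to 140 CPM in dendritic cell-like cells.

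Dendritic cell-like cells (94, 70, 39 and 72) were the other source of Mmp12. Their level was 90.8 CPM in WT day 3, 77.0 in WT day 5, 281 in Ccr2-/- day 3 and 1022 in Ccr2-/- day 5. Without the highest cell of each pool it was 44.8, 53.9, 127 and 140 CPM, and both Ccr2-/- pools stayed above both WT pools. In Ccr2-/- day 5, however, 2 cells held 4086 and 415 of the 4696 reads. The level without both was not computed, so the order of the genotypes on day 5 is not resolved. The share of cells with an Mmp12 read was 17.0%, 17.1%, 30.8% and 18.1% in the 4 pools. After thinning to 10000 reads it was 16.9%, 10.6%, 21.1% and 10.6%, the same in both day 5 pools. Of these 275 cells, 53 had an Mmp12 read and 11 held at least 1000 CPM, found in all 4 pools (3, 2, 3 and 3 cells). Mmp9 in dendritic cell-like cells had no read in WT day 3, which allows up to 0.616 CPM by 3 reads. It stood at 15.7 CPM in WT day 5, 112 in Ccr2-/- day 3 and 81.6 in Ccr2-/- day 5, where 1 cell held 63.6% and 54.9% of the reads in the Ccr2-/- pools of day 3 and day 5.

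Neutrophil-like cells numbered 53 (day 3) and 6 (day 5) for WT and 404 (day 3) and 795 (day 5) for Ccr2-/-, so that nearly all of their reads were from Ccr2-/- skin. Mmp9, the gelatinase stored in neutrophil granules, stood at 715 CPM (643 to 792) in WT day 3 and, in Ccr2-/-, at 980 CPM (951 to 1010) on day 3 and 1094 CPM (1072 to 1116) on day 5. The 6 cells of WT day 5 had 905 CPM (711 to 1136). The share of cells with an Mmp9 read was 58.5% (exact 95% interval 44.1% to 71.9%) in WT day 3, 59.7% (54.7% to 64.5%) in Ccr2-/- day 3 and 62.3% (58.8% to 65.6%) in Ccr2-/- day 5, with intervals that overlapped. After thinning to 10000 reads it was 77.8% (52.4% to 93.6%) of 18 cells in WT day 3. In the Ccr2-/- pools of day 3 and day 5 it was then 66.1% (59.0% to 72.8%) and 70.3% (65.3% to 74.9%), not in the order of the CPM. Mmp8, the neutrophil collagenase, stood at 238 CPM (198 to 285) in WT day 3 and, in Ccr2-/-, at 157 CPM (146 to 169) on day 3 and 157 CPM (148 to 165) on day 5. Its reads were found in 17.0% (8.07% to 29.8%), 10.1% (7.38% to 13.5%) and 14.2% (11.9% to 16.8%) of the cells. The 6 cells of WT day 5 had 611 CPM of Mmp8 (454 to 806), with 82.0% of the reads in 1 cell. By CPM, the Ccr2-/- pools were thus above WT day 3 in Mmp9 and below it in Mmp8, with 1 WT pool of enough cells and no test.

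The neutrophil-like cells were in 2 clusters that differed more in Mmp8 than in Mmp9. The cluster led by S100a9 and S100a8 (601 cells) held 260 CPM of Mmp8, and the cluster led by Il1a and Clec7a (657 cells) held 90.2 CPM. For Mmp9 the values were 901 and 1147 CPM, in the other order. The pools filled them unequally, with 43 of 53 cells in the S100a9 cluster in WT day 3 against 152 of 404 and 403 of 795 in the Ccr2-/- pools of day 3 and day 5. Inside the S100a9 cluster, Mmp8 stood at 269 CPM (95% interval 219 to 327) in WT day 3 and at 273 CPM (247 to 302) and 243 CPM (227 to 259) in the Ccr2-/- pools, with intervals that overlapped. Mmp9 there was 649 CPM (570 to 735) in WT day 3 and 824 CPM (778 to 872) and 944 CPM (913 to 975) in the Ccr2-/- pools, again lower in WT. An unnamed cluster led by Retnlg, Alox15 and Ccr3 (276 cells) also carried Mmp9, at 343, 369, 404 and 161 CPM in the 4 pools.

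The genes most like each member were sought among 10817 genes by Pearson's r of log2(CPM + 1) over 53 pairs of cell type and pool, pairs that share pools and depth. Mmp2 was most like the matrix proteoglycan genes Dcn (0.945) and Lum (0.936) and Apod (0.939). Mmp3 was most like the pentraxin Ptx3 (0.919) and the neutrophil chemokine Cxcl5 (0.890), followed by Cpxm1. Mmp14 was nearest to Cd302 (0.849), Laptm4a and the fibrillin Fbn1, and Timp1 to the extracellular superoxide dismutase Sod3 (0.863), Prrx2 and Loxl1. Mmp19 was nearest to Tmem26 (0.751), Dram1 and Lrp1. Mmp8 was nearest to Gm13822 (0.913), the formyl peptide receptor Fpr2 and Tnfsf13b, and Mmp9 to Gm29094 (0.882), Siglece and Bcl2a1a. Mmp12 was nearest to Fgd2 (0.758), Ifi30 and Tnip3, and Mmp13 to Fcna (0.635), the complement gene C1qa and Mfsd1, the lowest values of the 9. Among the members themselves, Mmp2 and Mmp3 had an r of 0.850, Mmp3 and Timp1 of 0.801 and Mmp14 and Timp1 of 0.766. The neighbours Mmp12 and Mmp13 had 0.518, and Mmp8 and Mmp9 had 0.525.

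The other inhibitors of metalloproteinases were set beside Timp1 in fibroblast-like cells. Of 5 other inhibitors (Timp2, Timp3, Timp4, Reck, A2m), 3 had at least 5 CPM there, 0 were at least 2-fold higher and 1 (Timp3) was at least 2-fold lower in Ccr2-/- on both days, against 0.535% higher and 1.07% lower over all genes. Timp3, which binds to the matrix, stood at 311.2 and 617.8 CPM in the WT pools, with 144 and 130 CPM for Ccr2-/- on day 3 and day 5. Timp2 stood at 1589 and 2478 CPM in WT skin against 1141 and 991 CPM in Ccr2-/- skin. Reck, a membrane-anchored inhibitor, stood at 60.3 and 71.6 CPM in the WT pools, with 36.2 and 27.1 CPM for Ccr2-/-. For all 3 the genotypes did not overlap. The list's median log2 ratio was -0.72 on day 3 and -1.37 on day 5, beside 0.00 and 0.05 for all genes tested, and 0 of the 4 genes fitted by edgeR passed.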

How the data were processed

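Cells from IgE-CAI ear skin of the 4 groups were tagged with hashtag antibodies, pooled and sequenced by TAS-Seq as 1 cDNA library and 1 hashtag library. Reads were trimmed with Cutadapt and mapped with Bowtie2 by the authors to mouse Ensembl RNA (GRCm38.p6), who subtracted background reads by distribution and deposited counts of reads, not of molecules, per gene or hashtag and barcode. Of the deposited values above 0, 22.1% were 1. The 2 libraries shared 8696 of 8953 barcodes, since they come from the same cells.

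A barcode with at least 10 reads over the 4 hashtags together was given to its highest hashtag if that was at least 3 times the next. For this ratio, hashtag reads (pseudocount 1) were scaled by the total of each hashtag. Barcodes with few hashtag reads (760, which include 257 with no hashtag entry) or several hashtags (570) and those over 20% mitochondrial reads (594) were left out. The mitochondrial limit was counted over all barcodes, so it overlaps the hashtag classes. The removal of barcodes with several hashtags was the treatment of doublets, no doublet caller was run, and doublets within a pool remain. The 9 unused hashtag columns were not used. Cells were normalized, reduced to 2000 variable genes and 30 principal components and clustered with Leiden at resolution 1 in scanpy 1.11.5. Clusters were named from marker lists, at least 3 markers passing a z-score of 0.5 and no other type having more markers among the 10 leading genes. A limit that leaves shallow clusters unnamed was set relative to the depth of each cluster's own pool after the data were seen. These names are rebuilt and can differ from the study's.

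CPM are reads of a gene per 1000000 reads summed over the cells of a type and pool, with exact Poisson intervals. Shares of cells have exact Clopper-Pearson intervals. Genotypes were compared by CPM ratios within each day (pseudocount 1 CPM, genes with a mean of at least 5 CPM, called when past 2-fold on both days) and by edgeR 4.0.16 (quasi-likelihood, TMM, filterByExpr, day as a term, 1 residual degree of freedom, Benjamini-Hochberg over all genes), with DESeq2 1.42.0 as an alternative. The edgeR step was tested on simulated data. The members, the other lists (other metalloproteinases, inhibitors, and the plasminogen system and activators) and the markers were chosen with earlier results of these data known. The text names the 9 members, for each the 3 genes most like it, and the listed genes with at least 100 CPM in a cell type and pool with at least 20 cells, of which 1 is not reported here. Promoters were read from a RefSeq table of GRCm38.p6.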

Additional observations from a re-analysis of the deposited data

Results flagged for a closer look

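For 3 pairs of values, pools of the 2 genotypes or days moved in opposite directions by more than 1.25-fold, with 1 pool per group. None of these differences was tested. In fibroblast-like cells, the log2 ratio of Ccr2-/- over WT for Mmp3 was -0.34 on day 3 and 0.49 on day 5. In Mo-Mac-like cells, the log2 ratio of Ccr2-/- over WT for Mmp8 was -0.93 on day 3 and 1.01 on day 5, on 643 and 79 reads in the WT pools of day 3 and day 5 and 130 and 50 reads in the Ccr2-/- pools. The log2 ratio of day 5 over day 3 for Mmp2 in Mo-Mac-like cells was 0.62 in WT and -0.64 in Ccr2-/-. The summed fibroblast markers in the same cells moved the same way, from 1982 to 2418 CPM in WT and from 1626 to 958 CPM in Ccr2-/-.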

How the results depend on the processing

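The 2-fold counts were 2 of 5 for Ccr2-/- over WT in fibroblast-like cells, and 1 (Mmp13) and 2 (Mmp9 and Mmp12, by day) of 9 in Mo-Mac-like cells. Giving each cell to its best marker list left 1 in fibroblast-like cells (Mmp19), where the edgeR log2 difference of Timp1 was 1.27 (SE 0.13) against 1.46. In Mo-Mac-like cells the genotype count was 0 with a pseudocount of 5 CPM and 3 at 1.5-fold, and the day count was 4 at 1.5-fold. The share of all genes past 1.5-fold was not counted, so the counts at that limit have no background and are not read as a result. Under the mean of single-cell CPM the 1 gene was Mmp12, not Mmp13. Without the highest cell of each pool, 4 genes and not 2 had their highest mean in fibroblast-like cells, and the log2 ratio of Ccr2-/- over WT for Mmp12 in Mo-Mac-like cells on day 5 was -0.54. Genes called in fibroblast-like cells were 46 of 31279 with no filter and 1593 of 19965 with DESeq2, against 0 of 19965 by edgeR with the filter. The members among them were 1 with no filter and 3 with DESeq2. In Mo-Mac-like cells, 95 of 16485 genes were called. The number was 1 with DESeq2-type size factors in edgeR, 28 with library sizes, 1337 of 27655 with no filter and 31 at a hashtag ratio of 10. It was 0 at a mitochondrial limit of 10%, 0 with the marker gate and 733 of 16485 with DESeq2. The members among them were 5 with no filter and 3 with DESeq2. The cause of these shifts was not tested. Of 504 log2 ratios over all alternatives, 363 stayed within the counting error of their reads, 140 moved beyond it and 1 reversed. A ratio was counted as reversed only if its sign changed and its main log2 ratio was at least 1 in size. Sign changes of smaller ratios are therefore among the other counts. No paired analysis was possible because the labels give the pools no replicate numbers. Leaving out 1 pool leaves no residual degree of freedom and was not run. Depth limits Mmp8 and Mmp13 most, with 3355 and 3207 reads in all.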

Other observations

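Of 9 genes of the plasminogen system and activators, 7 were fitted by edgeR in each of the 2 cell types. Of these, 1 passed in Mo-Mac-like cells, where 0.576% of all genes tested did, and 0 in fibroblast-like cells, where 0% did. Plau, the urokinase that turns plasminogen into plasmin, stood at 99.1 and 114 CPM in WT Mo-Mac-like cells and at 292 and 269 CPM in Ccr2-/- cells on day 3 and day 5, with no overlap (log2 difference 1.45, SE 0.18, edgeR adjusted p = 0.0357). The log2 difference stayed between 1.40 and 1.60 under 8 alternatives, but 5 of them lost the call, with adjusted p from 0.0530 (hashtag ratio of 10) to 0.174 (marker gate). It was the 1 gene of 6 at 5 CPM or more that was at least 2-fold higher on both days, against 1.86% of all genes. By cell type, Plau was highest in mast cell-like cells, at 354 ± 37.1 CPM (SD, n = 2 pools), a range that overlapped that of lymphatic endothelial-like cells. Its receptor gene Plaur was highest in neutrophil-like cells, at 888 ± 133 CPM (SD, n = 3 pools), above the range of every pool of the next type. Serpinb2, which inhibits plasminogen activators, was highest in the unnamed cluster led by Retnlg, at 809 ± 209 CPM (n = 3 pools). Plat was highest in fibroblast-like cells, at 239 ± 21.6 CPM (n = 4), above every pool of the next type. Furin, a convertase that activates Mmp14, averaged 746 ± 234 CPM in basophil-like cells (n = 3), and Serpine2 stood at 918 CPM in the 1 pool of pericyte or smooth muscle-like cells with enough cells.

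Of 15 other metalloproteinases, 13 had a row, 4 had at least 5 CPM in fibroblast-like cells and 0 in Mo-Mac-like cells, and none passed a test or was past 2-fold on both days. Mmp23 averaged 80.5 ± 23.2 CPM in fibroblast-like cells (n = 4) and Mmp25 140 ± 79.1 CPM in T cell-like cells (n = 3). Among the inhibitors, Timp3 averaged 3431 ± 476 CPM, Timp2 2659 ± 163 CPM and Reck 117 ± 36.6 CPM in cartilage-like cells (n = 4 each), and Timp4 121 ± 65.3 CPM in blood endothelial-like cells (n = 4). In Mo-Mac-like cells Timp2 stood at 933 and 1622 CPM in the WT pools, with 1580 and 1670 CPM for Ccr2-/-, so the genotypes overlapped.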
